A study of Mus musculus with 6 samples.

Results

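The mitochondrial genome is a small circular DNA that codes for part of the respiratory chain and for the RNAs needed to translate it. Its genes were taken as the rows of the deposited gene count table whose name starts with mt-, which gave 37 of 55536 named rows. They comprised 13 mRNAs, 2 ribosomal RNAs (rRNAs) and 22 transfer RNAs (tRNAs), and these classes were kept apart.

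RNA was sequenced from bone marrow cells (BM), from M-BMDM and GM-BMDM, macrophages that marrow yields in culture with M-CSF and GM-CSF respectively, and from such macrophages given the cytokine interleukin-6 (IL6). All cells came from C57BL/6 mice aged 8 weeks, and macrophages were cultured for 7 days. Of the 6 groups, BM was 1, M-BMDM had 3 (no IL6, 3 h of IL6, 24 h of IL6), and GM-BMDM had 2 (no IL6, 3 h of IL6). Each group had 1 library. The sources used here give no IL6 dose, no sex of the mice and no statement on pooling of animals.

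Counts on named genes ran from 18511790 (M-BMDM) to 24134365 (GM-BMDM) per library. Levels are given as scaled CPM, the count divided by a library size common to all genes (CPM) after TMM scaling, which assumes that most genes do not differ between libraries. A summed set of 8 macrophage markers made up 0.627% of counts in BM and from 2.94% to 4.34% in the cultures. BM also held 9.24% of its counts on 8 erythroid markers and 3.23% on 8 neutrophil markers, against at most 0.00104% and 0.0014% in any culture. The 5 dendritic cell markers summed to 0.00634% in BM, to 0.00358% and 0.00375% in the GM-BMDM libraries and to at most 0.000178% in the M-BMDM libraries. Socs3, a gene that IL6 signalling is known to raise, stood at 102 scaled CPM in M-BMDM against 99.3 after 3 h of IL6, and at 142 in GM-BMDM against 141 after 3 h. It stood at 7.60 in M-BMDM after 24 h. Socs3 was thus not higher in either library labelled as 3 h of IL6, nor in the one labelled 24 h. This 1 gene did not bear out the labels, and it cannot decide them, since no time before 3 h was sampled. Values given below for IL6 are those of the libraries so labelled.

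Both strands of the mitochondrial genome are transcribed as long precursors. The tRNAs lie between most mRNAs and rRNAs, and cutting them out releases the others. In mouse the 13 mRNAs code for subunits of complex I (the Nd genes), complex III (mt-Cytb), complex IV (mt-Co1, mt-Co2 and mt-Co3) and ATP synthase (mt-Atp6 and mt-Atp8). The 2 rRNAs, mt-Rnr1 and mt-Rnr2, form the core of the small and large subunits of the mitochondrial ribosome. All 3 kinds of transcript come from such precursors, so their levels can differ by processing and decay as well as by transcription.

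Some mitochondrial genes lie so close together that their annotated sequences overlap. Whether overlapping genes on the same strand share an RNA cannot be told from counts per gene. Such genes are still counted below as separate mRNAs, but differences between their rows are not read as differences between RNAs. The 3 longest overlaps between mRNAs are shown because reads in them belong to both genes. They are given in the GRCm38 sequence of the GENCODE M21 transcripts with the shared bases in capitals. An overlap of 1 base between mt-Atp6 and mt-Co3 is left out. The 43 bases shared by mt-Atp8 and mt-Atp6 lie within chrM:7915-7981, the 7 bases shared by mt-Nd4l and mt-Nd4 within chrM:10155-10185, and the 14 bases shared by mt-Nd5 and mt-Nd6 within chrM:13540-13577. mt-Nd5 and mt-Nd6 lie on opposite strands, and the sources used here do not say whether counting used strand. All 3 stretches are on the plus strand.
mt-Atp8 and mt-Atp6: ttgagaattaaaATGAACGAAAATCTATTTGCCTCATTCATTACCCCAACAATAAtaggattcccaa
mt-Nd4l and mt-Nd4: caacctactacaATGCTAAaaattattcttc
mt-Nd5 and mt-Nd6: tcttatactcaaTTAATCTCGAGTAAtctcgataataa

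A larger overlap exists with the nuclear genome, where 7 of the 13 mRNAs have an annotated near-identical copy. Chromosome 1 of GRCm38 holds a block of 7 unprocessed pseudogenes on the minus strand between 24611535 and 24616197, each matching 1 mitochondrial mRNA. mt-Co2 matched Gm28661 (chr1:24614885-24615565) over 681 bases, mt-Atp6 matched Gm10925 (chr1:24613974-24614651) over 678, and mt-Co3 matched Gm28437 (chr1:24613189-24613971) over 783. mt-Nd4l matched Gm10222 (chr1:24612407-24612700) over 294 bases, and the first 876 bases of mt-Nd4 matched Gm28439 (chr1:24611535-24612410). All 5 matches were 100% identical. The match to Gm10925 takes in the 43 bases that mt-Atp8 shares with mt-Atp6. mt-Atp8 is still treated below as having no annotated copy, since a copy needed a match of 100 bases. Only annotated transcripts were searched. The rest of mt-Atp8 lies between the stretches that match Gm28661 and Gm10925, and the chromosome 1 sequence between these pseudogenes was not compared. An unannotated copy of mt-Atp8 there was therefore not tested. A read from the matched stretches cannot be placed by its sequence, as the first 60 bases of mt-Co2 (chrM:7013-7072, plus strand, start codon in capitals) show, since Gm28661 has the same letters.
mt-Co2 and Gm28661: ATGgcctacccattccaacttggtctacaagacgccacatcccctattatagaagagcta

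Only 2 of the matches to this block held a difference, 1 base each. The last 483 bases of mt-Co1, 31.3% of the gene, matched Gm29216 (chr1:24615706-24616197) with the substitution A1066T, and mt-Nd3 matched Gm28438 (chr1:24612775-24613119) over 345 bases with T3C. Positions count from 1 at the first base of the mitochondrial gene, the mitochondrial base comes first, and the base that differs is in capitals below, where the mitochondrial stretches are chrM:6390-6413 and chrM:9459-9481. mt-Co1 also matched Gm13340 on chromosome 2 (chr2:22588103-22589647) with 97.6% identity over its 1545 bases, and that row held at most 2.97 counts in any library.
mt-Co1: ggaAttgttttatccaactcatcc
Gm29216: ggaTttgttttatccaactcatcc
mt-Nd3: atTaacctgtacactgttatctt
Gm28438: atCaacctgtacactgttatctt

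The deposited table divided the counts of these genes between the mitochondrial row and the nuclear row. mt-Atp6, a subunit of the proton channel of ATP synthase, was listed at 0 in all 6 libraries, while Gm10925, which has the same sequence, held from 18055 counts in M-BMDM to 40640 in GM-BMDM. By counting error alone, a row at 0 allows up to 3 counts, or 0.164 scaled CPM in the library with the smallest scaled size, GM-BMDM after 3 h. This limit holds for the row as listed and not for mt-Atp6 RNA, whose reads may have been listed on Gm10925. The mt-Co2 row held 2.70% of the counts summed over mt-Co2 and Gm28661 in BM, 6.89% in M-BMDM, 3.76% after 3 h of IL6 and 3.22% after 24 h. It held 3.13% in GM-BMDM and 1.44% after 3 h. The row's share was therefore lowest in 1 IL6 library and highest in the M-BMDM library without IL6.

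The mt-Co3 row held 10.8% of the sum with its copy in BM, 10.5% in M-BMDM, 10.9% in M-BMDM after 24 h, 10.9% in GM-BMDM and 9.56% in GM-BMDM after 3 h. In M-BMDM after 3 h of IL6 it held 3.73%, which stood apart from the other 5 libraries. mt-Nd3 held between 26.3% (GM-BMDM) and 47.6% (M-BMDM after 3 h), and mt-Nd4l between 16.8% (GM-BMDM) and 33.8% (M-BMDM). mt-Co1, whose copy spans less of the gene, kept from 92.5% (BM) to 97.3% (M-BMDM). mt-Nd4 kept 100% in every library, since Gm28439 was listed at 0 throughout. Which rows a read was counted on thus varied between libraries for 5 genes, and values of these genes are given below for the row as listed and for the row plus its copies. The sum was added after the data were seen, and what part of it came from the nuclear copies themselves was not tested.

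**Figure D1:**
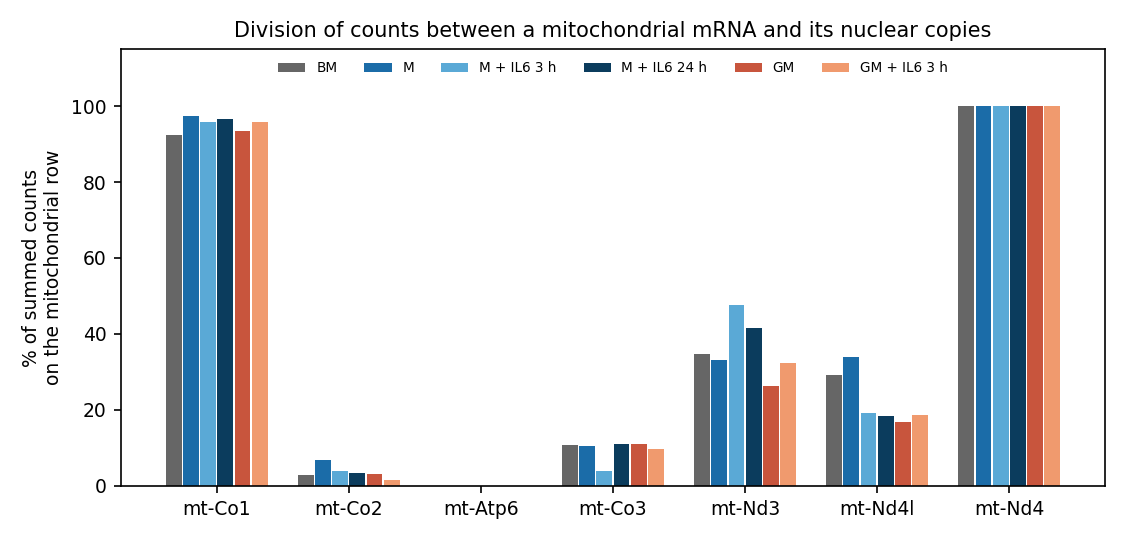
Percent of summed counts that stood on the mitochondrial row (vertical axis) for the 7 mRNAs with an annotated nuclear copy, with 1 bar per library. The mt-Co2 bars lie between 1.44% and 6.89%, the mt-Co3 bar of M-BMDM after 3 h of IL6 (3.73%) lies below the other 5, and mt-Atp6 is at 0 in all.

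mt-Co1, the catalytic core subunit of complex IV, was the most abundant mitochondrial mRNA in every library. Its row stood at 6052 scaled CPM in BM, 9183 in M-BMDM, 9445 after 3 h of IL6, 9218 after 24 h, 15937 in GM-BMDM and 16414 after 3 h. It made up 42.2% (BM) to 49.6% (GM-BMDM after 3 h) of all mitochondrial mRNA counts as listed. The values fell into 3 levels with no overlap, BM lowest, the 3 M-BMDM libraries between and the 2 GM-BMDM libraries highest.

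mt-Co2, which takes electrons from cytochrome c, stood on its own row at 76.2 scaled CPM in BM, 231 in M-BMDM, 133 after 3 h, 96 after 24 h, 203 in GM-BMDM and 81.5 after 3 h of IL6. With Gm28661 added, the levels were 2818 in BM, 3358, 3538 and 2979 in the M-BMDM libraries in the same order, 6487 in GM-BMDM and 5672 after 3 h. The row alone put M-BMDM above GM-BMDM, and the sum put both GM-BMDM libraries above all others. mt-Co3, the other core subunit, stood as listed at 224, 290.4, 114, 261, 460.5 and 397 scaled CPM, with the libraries in the order just used. With Gm28437 added the same order gave 2069, 2775, 3061, 2391, 4214 and 4158. The low value of M-BMDM after 3 h was present on the row alone and absent from the sum.

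mt-Cytb, the cytochrome b of complex III, has no annotated copy. It stood at 1606 scaled CPM in BM, 1954 in M-BMDM, 1909 after 3 h, 1625 after 24 h, 3694 in GM-BMDM and 3082 after 3 h of IL6. Both GM-BMDM libraries lay above all others, and BM and M-BMDM after 24 h were nearly level.

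Of the complex I mRNAs, 4 have no annotated copy. mt-Nd5, a proton-pumping subunit, was the most abundant of them at 3123 scaled CPM in BM, 4118 in M-BMDM, 3814 after 3 h, 3809 after 24 h, 7041 in GM-BMDM and 6624 after 3 h. mt-Nd1 stood at 1144, 1389.5, 1343, 1258, 2283 and 2373 in the same order, and mt-Nd2 at 529.7, 732, 679.6, 685, 1113 and 932. mt-Nd6, the single mRNA on the opposite strand, stood at 178, 280.3, 289, 222, 530.2 and 412. In all 4, BM was lowest and the 2 GM-BMDM libraries highest, with no overlap between the macrophage types.

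The other 3 complex I mRNAs have a copy in the chromosome 1 block. mt-Nd4, whose copy took no counts, stood at 1264 scaled CPM in BM, 1635 in M-BMDM, 1489.6 after 3 h, 1353 after 24 h, 2814 in GM-BMDM and 2528 after 3 h. The row plus copy of mt-Nd3 gave 164, 210.4, 208, 150.3, 353 and 381 in that order, against 56.9, 69.4, 99.3, 62.5, 92.8 and 123 on the row alone. The row plus copy of mt-Nd4l gave 109, 131, 127, 136, 265 and 217, against 31.9, 44.4, 24.1, 25.2, 44.5 and 40.5 on the row alone. For both short genes the macrophage types did not overlap in the sums, while M-BMDM after 3 h lay above GM-BMDM on the mt-Nd3 row, and M-BMDM above GM-BMDM after 3 h on the mt-Nd4l row.

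The ATP synthase mRNAs differed from the rest in BM. mt-Atp8 stood at 54.1 scaled CPM in BM, 36.9 in M-BMDM, 45.4 after 3 h, 39.3 after 24 h, 87.3 in GM-BMDM and 68.6 after 3 h of IL6. The sum of mt-Atp6 and its copy stood at 1081, 969, 1082, 793, 1869 and 1565. BM lay above M-BMDM without IL6 for both genes, and below it for the other 11 mRNAs.

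**Figure D2:**
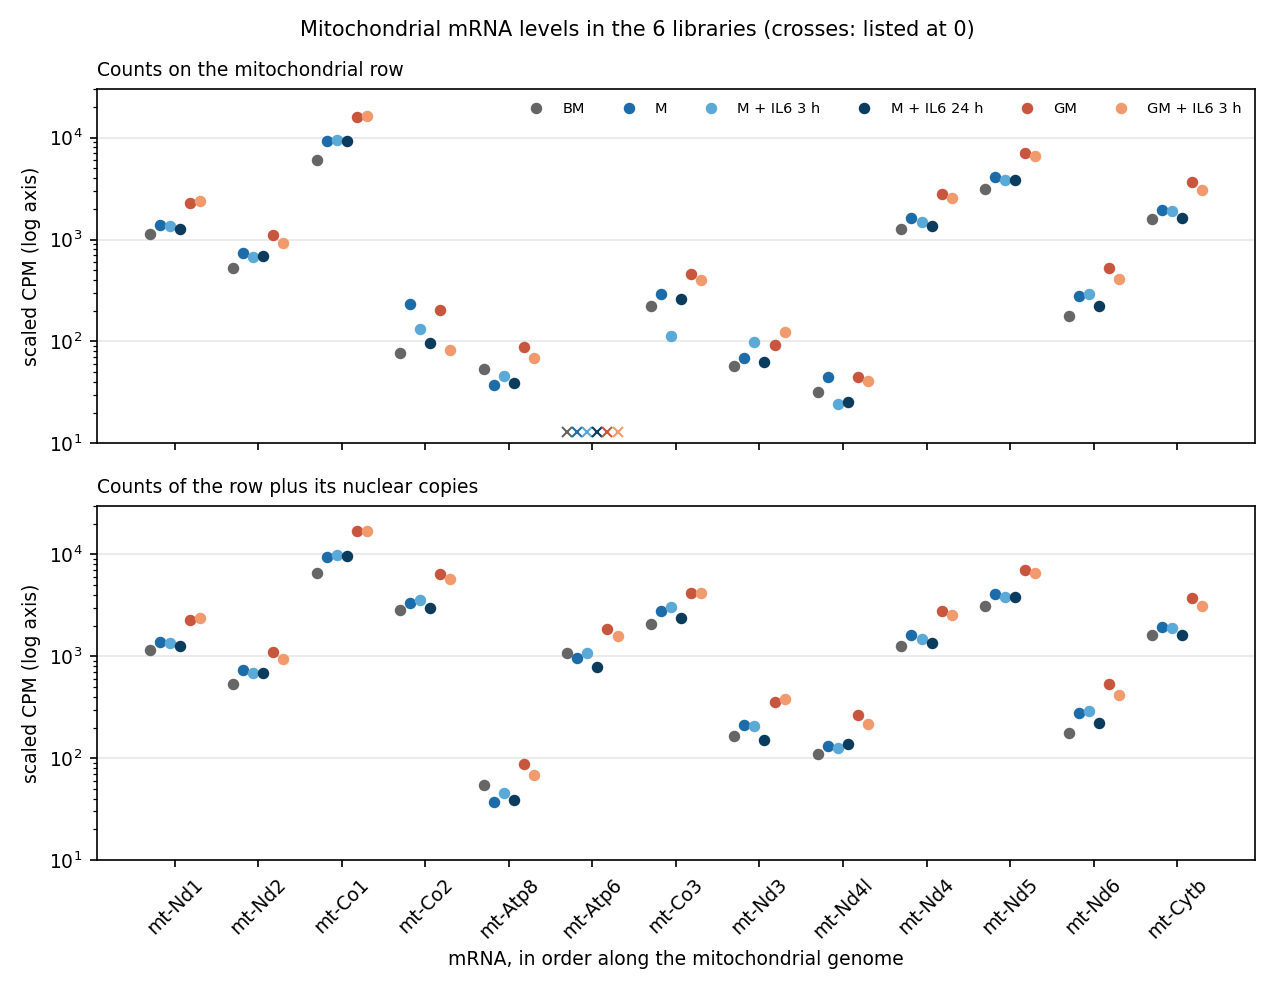
Scaled CPM on a log axis of the 13 mitochondrial mRNAs in genome order, 1 point per library, for the row as listed (top) and the row plus its nuclear copies (bottom). In the lower panel the 2 GM-BMDM libraries stand above the others for every mRNA, while mt-Co2, mt-Nd3 and mt-Nd4l break this order in the upper panel, where mt-Atp6 is listed at 0.

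Per length, with copies added, the order was nearly the same in every library. mt-Co1 was at rank 1 (4236 scaled CPM per kb in BM, 11051 in GM-BMDM), mt-Co2 at rank 2 (4120.4 and 9484), mt-Co3 at rank 3 (2639 and 5376) and mt-Nd5 at rank 4 (1712 and 3860.0) in all 6. mt-Nd4 was at rank 8 in all 6, at 917 in BM and 2042 in GM-BMDM, and mt-Cytb, mt-Atp6 and mt-Nd1 shared ranks 5 to 7. mt-Nd2, mt-Nd3, mt-Nd4l and mt-Nd6 shared ranks 9 to 12, and in GM-BMDM all 4 lay between 892 and 1072. With 1 library per group no spread between samples bears on this order. mt-Rnr2 was last in all 6, at 252 in BM and 239 in GM-BMDM. Levels of genes of 204 to 348 bases depend on how well reads from short genes were recovered, which was not tested. The part of read assignment in the different levels of mt-Atp8 and mt-Atp6, which overlap, was not tested either. The same holds for mt-Nd4l and mt-Nd4.

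All mitochondrial mRNAs together took a larger share of the RNA in GM-BMDM than in any other library. As listed they made up 1.62% of counts in BM, 2.01% in M-BMDM, 1.89% after 3 h, 2.06% after 24 h, 3.09% in GM-BMDM and 2.99% after 3 h of IL6. With copies added the shares were 2.34%, 2.72%, 2.67%, 2.76%, 4.31% and 4.09%. The 3 M-BMDM libraries lay within 1.89% to 2.06% as listed, and both GM-BMDM libraries lay near 3%. Their exact 95% binomial intervals were narrow (3.08% to 3.10% in GM-BMDM). Like all intervals below they come from a binomial on the counts and reflect counting alone. They leave out the spread between samples and any error in dividing reads between identical rows. Reads copied by PCR and lacking molecular identifiers also do not each stand for a molecule. In bulk RNA, fewer cells of a type and less RNA per cell cannot be told apart.

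Ratios of GM-BMDM to M-BMDM were taken in 2 pairs of libraries, without IL6 and after 3 h of it. The 2 pairs share no library. To be counted as higher or lower, a gene needed a ratio of scaled counts of 2-fold or more, an exact 95% counting interval clear of 1 and 5 scaled CPM or more in its higher library. Such ratios have no replicate check. Without IL6 the mRNA total was 1.72-fold higher in GM-BMDM as listed (95% counting interval 1.71 to 1.72) and 1.77-fold higher with copies (1.76 to 1.78). After 3 h of IL6 it was 1.71-fold higher as listed and 1.65-fold with copies. The 6 mRNAs with no annotated copy gave 1.73-fold and 1.67-fold. The difference was therefore about the same size whichever rows were summed, and below the 2-fold limit.

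Of the 12 mRNAs with counts as listed, 1 was counted as higher in GM-BMDM without IL6, where 10.8% of all genes tested were, and none as lower, where 8.64% were. This was mt-Atp8, at 2.36-fold (2.17 to 2.58). With copies added, 2 of 13 were counted as higher, mt-Atp8 and mt-Nd4l at 2.02-fold (1.93 to 2.12), and the log2 ratios of all 13 lay between 0.60 (mt-Co3) and 1.24 (mt-Atp8). The genes that overlap these, mt-Atp6 (1.93-fold with its copy) and mt-Nd4 (1.72-fold), were not counted. The part of read assignment in these differences was not tested. After 3 h of IL6, 1 of 12 was counted as higher as listed (10.6% of all genes) and none as lower (8.06%). That gene was mt-Co3, with a log2 ratio of 1.80 as listed and 0.44 with its copy, because its row was low in M-BMDM after 3 h. With copies added none was counted in this pair, and the log2 ratios lay between 0.44 (mt-Co3) and 0.87 (mt-Nd3). By comparison, the median log2 ratio over all genes tested was -0.03 in both pairs. Scaling by total counts shifts every log2 ratio by -0.16 in the pair without IL6 and by -0.11 after 3 h.

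edgeR's quasi-likelihood test was fitted across all genes to all 6 libraries, with terms for the macrophage type and for each duration of IL6. Its spread came from 1 residual degree of freedom, namely how far the 3 h ratio in M-BMDM lay from that in GM-BMDM, pooled over 14719 genes. Separate M-CSF or GM-CSF cultures were not compared, so any spread between them enters the cell type term. The labels do not state separate cultures or animals for the libraries, so the p-values measure only that spread, which may be technical. As listed, 11 of 12 mRNAs rose in GM-BMDM over M-BMDM and 1 fell, where 28.9% of all genes rose and 27.4% fell. The gene that fell was mt-Co2, at a log2 fold of -0.44 ± 0.08 (SE, edgeR adjusted p = 1e-06). With copies added, all 13 rose, where 29% of all genes rose and 27.4% fell, and mt-Co2 then had a log2 fold of 0.82 ± 0.10 (edgeR adjusted p = 4.7e-14).

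The mRNAs with no annotated copy moved by similar amounts in this fit. Log2 folds were 0.77 ± 0.09 for mt-Nd1, 0.53 ± 0.09 for mt-Nd2, 0.79 ± 0.10 for mt-Nd5, 0.72 ± 0.08 for mt-Nd6, 0.80 ± 0.10 for mt-Cytb and 0.92 ± 0.10 for mt-Atp8 (all SE). Their edgeR adjusted p-values ran from 9.8e-09 (mt-Nd2) down to 4.1e-19 (mt-Atp8). Of these genes mt-Atp8 is a limited case, since its last 43 bases, shared with mt-Atp6, are also in Gm10925. Its other bases were not compared with the unannotated chromosome 1 sequence between Gm28661 and Gm10925, so mt-Atp8 cannot be taken as free of a copy. mt-Co3 was the gene whose size depended most on the rows used among those that rose in both, with 1.22 ± 0.09 as listed and 0.52 ± 0.10 with its copy. Both rRNAs rose too, mt-Rnr1 by 0.49 ± 0.08 and mt-Rnr2 by 0.65 ± 0.08 on the log2 scale.

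Against BM, most mitochondrial mRNAs were counted as higher in GM-BMDM, and few or none in M-BMDM. The mRNA total was 1.39-fold higher in M-BMDM as listed and 1.31-fold with copies, and 2.39-fold and 2.31-fold higher in GM-BMDM. In M-BMDM 1 of 12 mRNAs was counted as higher (20.1% of all genes) and none as lower (23%). That was mt-Co2, with a log2 ratio of 1.60 as listed and 0.25 with its copy. With copies none of the 13 was counted, and log2 ratios ran from -0.55 (mt-Atp8) to 0.65 (mt-Nd6). mt-Atp8 and the sum for mt-Atp6 (-0.16) lay below BM, with counting intervals below 0, and the other 11 above it.

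In GM-BMDM 8 of 12 mRNAs were counted as higher than in BM, where 19.8% of all genes were, and none as lower, where 22.3% were. With copies added 10 of 13 were counted, all but mt-Nd1 (log2 ratio 1.00, just under 2-fold), mt-Atp6 (0.79) and mt-Atp8 (0.69). mt-Nd6 had the highest ratio, 2.97-fold (2.87 to 3.08), and mt-Co1 was 2.63-fold higher as listed. BM is a mixture of cells, and its erythroid and neutrophil markers given above fell to near 0 in the cultures, so the ratios to BM compare mixtures. The part of the mixture in these ratios was not tested. Scaling by total counts, which shifts every log2 ratio to BM by -0.33 for GM-BMDM and by -0.17 for M-BMDM, lowered the count in GM-BMDM to 3 of 12. The share of all genes counted under that scaling was not taken, so this count has no background.

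**Figure D3:**
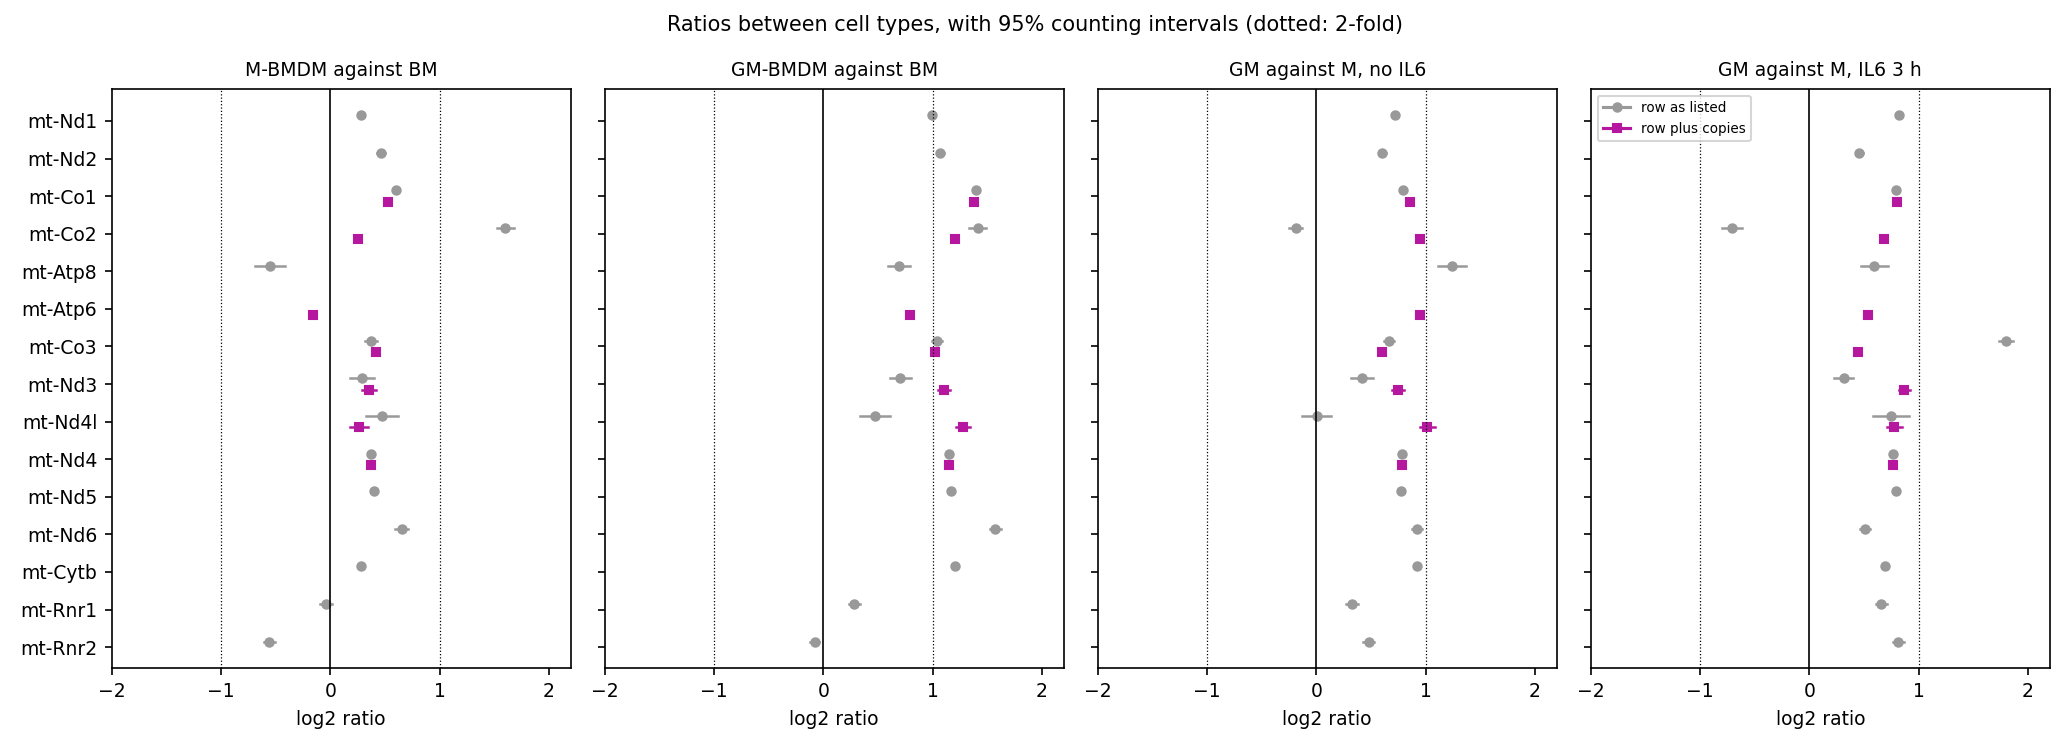
Log2 ratios of scaled counts between cell types for the 13 mRNAs and 2 rRNAs, with 95% counting intervals as lines, grey circles for the row as listed and purple squares for the row plus its copies. Dotted lines mark 2-fold. The squares and the mRNAs without an annotated copy lie between 0.44 and 1.24 in both GM-BMDM to M-BMDM panels, and the grey circles of mt-Co2 lie below 0 there.

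IL6 for 3 h gave small ratios for the mRNA total, and the larger ratios of single mRNAs were on rows with a nuclear copy. In M-BMDM the log2 ratio of the mRNA total was -0.04 as listed and 0.02 with copies, and in GM-BMDM it was -0.05 and -0.08. Total-count scaling shifts the ratios in M-BMDM by -0.05, which is more than the total with copies. In M-BMDM after 3 h 1 of 12 mRNAs was counted as lower, where 0.272% of all genes were, and none as higher, where 0.0906% were. This was mt-Co3, at -1.35 (95% counting interval -1.41 to -1.28), and with its copy the log2 ratio was 0.14. In GM-BMDM after 3 h 1 of 12 was counted as lower (0.107% of all genes) and none as higher (0.0585%). It was mt-Co2, at -1.32 (-1.40 to -1.23), and with its copy -0.19. With copies added none of 13 was counted in either pair, and all log2 ratios lay between -0.13 and 0.30 for M-BMDM and between -0.36 and 0.11 for GM-BMDM.

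In the edgeR fit of 3 h of IL6 over both macrophage types, 1 of 12 mRNAs rose as listed, where 0.177% of all genes did, and 3 fell, where 0.788% did. mt-Nd3 rose by 0.46 ± 0.09 on the log2 scale (SE, edgeR adjusted p = 0.00017). mt-Co2 fell by 1.05 ± 0.08 (edgeR adjusted p = 2.9e-27), mt-Co3 by 0.77 ± 0.09 (2.8e-13) and mt-Nd4l by 0.50 ± 0.10 (0.00085). All 4 have a near-identical copy on chromosome 1. With the copies added, none of 13 rose, where 0.183% of all genes did, and none fell, where 0.795% did, and the same 4 genes had log2 folds of 0.05 ± 0.08 (mt-Nd3), -0.06 ± 0.10 (mt-Co2), 0.06 ± 0.10 (mt-Co3) and -0.17 ± 0.08 (mt-Nd4l). No mRNA without an annotated copy passed the test in either form, and the edgeR adjusted p of these genes as listed was 0.555 or more. The DESeq2 Wald test called 1 of 12 lower and none higher as listed, where 3 of all 14719 genes were lower and 0 higher.

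After 24 h of IL6 the M-BMDM mRNA total had a log2 ratio of -0.10 as listed and -0.11 with copies. As listed 1 of 12 mRNAs was counted as lower (8.93% of all genes) and none as higher (11.5%). That was mt-Co2, at -1.27, and with its copy at -0.17. With copies none was counted, and log2 ratios ran from -0.48 (mt-Nd3) to 0.09 (mt-Atp8). The mRNAs without an annotated copy had a summed log2 ratio of -0.16. Total-count scaling moves all log2 ratios of this pair by 0.14 and put the mRNA total as listed at 0.04.

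**Figure D4:**
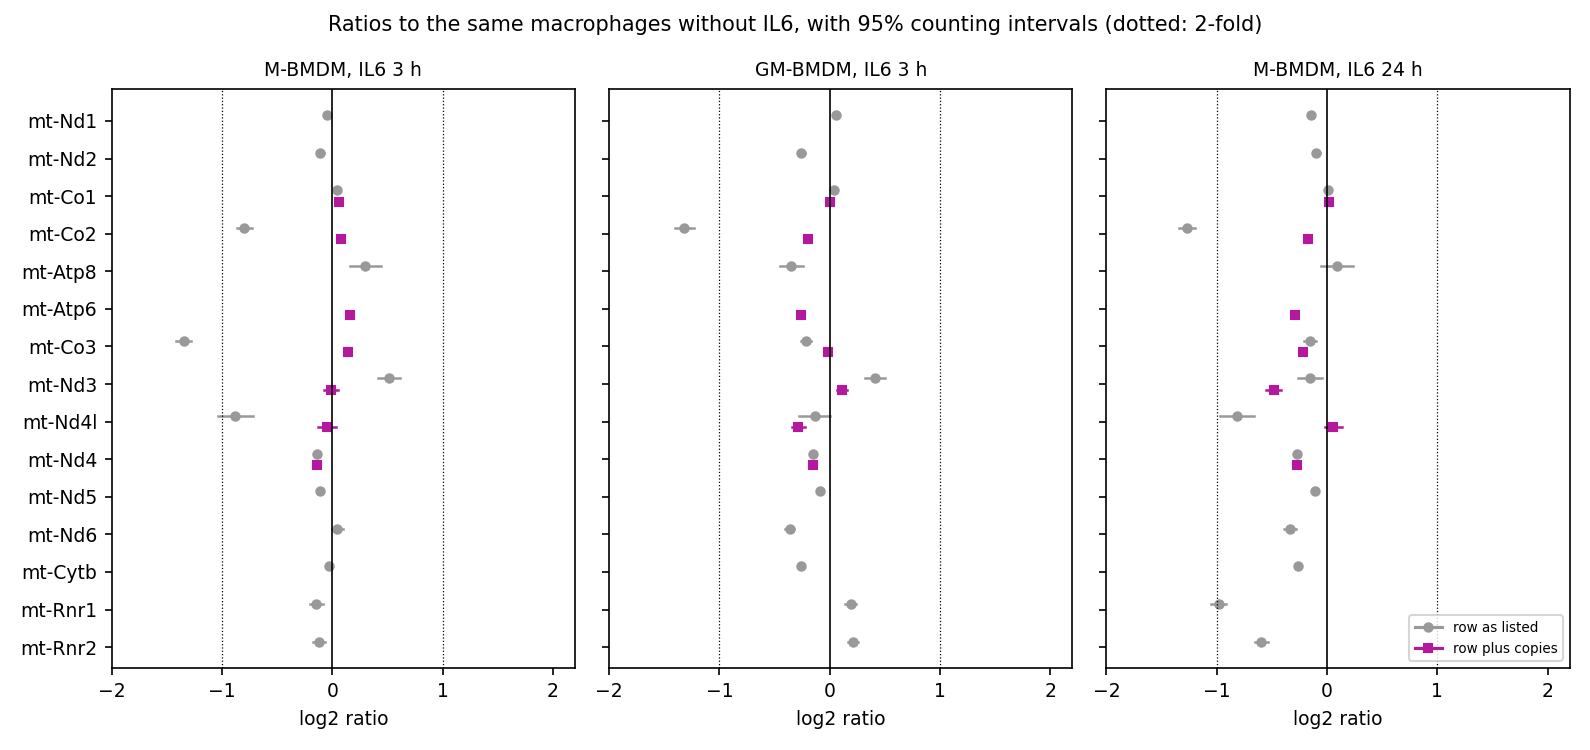
Log2 ratios of libraries with IL6 to the same macrophage type without it, with 95% counting intervals, grey circles for the row as listed and purple squares for the row plus its copies. Beyond the dotted 2-fold lines lie mt-Co3 in M-BMDM at 3 h (-1.35) and mt-Co2 in GM-BMDM at 3 h (-1.32) and in M-BMDM at 24 h (-1.27), all grey circles, and no square does.

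The rRNAs did not follow the mRNAs in every library. mt-Rnr1, the small subunit rRNA, stood at 249 scaled CPM in BM, 242 in M-BMDM, 219 after 3 h, 123 after 24 h, 303 in GM-BMDM and 346 after 3 h of IL6. mt-Rnr2, the large subunit rRNA, stood at 399, 271, 249, 179, 377 and 437 in that order. M-BMDM after 24 h was lowest for both. The log2 ratio of this library to M-BMDM without IL6 was -0.98 (95% counting interval -1.05 to -0.92) for mt-Rnr1 and -0.60 (-0.66 to -0.54) for mt-Rnr2, both short of the 2-fold limit. After 3 h the rRNA total had a log2 ratio of -0.13 in M-BMDM against 0.20 in GM-BMDM, and neither rRNA passed the edgeR test for 3 h of IL6.

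Counts of rRNA per 1000 mRNA counts do not depend on the scaling. As listed there were 45.2 in BM, 25.7 in M-BMDM, 24.1 after 3 h, 16.2 after 24 h, 19.8 in GM-BMDM and 23.7 after 3 h of IL6. With copies added to the mRNAs the values were 31.3, 19.0, 17.0, 12.1, 14.2 and 17.3. BM was highest and M-BMDM after 24 h lowest in both forms. The number of mt-Rnr2 counts per mt-Rnr1 count was 1.60 in BM, 1.12 in M-BMDM, 1.14 after 3 h, 1.46 after 24 h, 1.25 in GM-BMDM and 1.26 after 3 h, so the 2 rRNAs did not move in a fixed ratio either. The sources used here do not say whether the libraries were made with poly(A) selection or removal of rRNA, and either would set how much rRNA is counted. The part of such a step in these ratios was not tested.

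mt-Nd6 is the single mRNA read from the other strand, so its counts were set against those of the other 12. The ratio compares levels, which can differ by processing and decay, and the output of each strand was not tested. As listed there were 12.6 mt-Nd6 counts per 1000 counts of the other mRNAs in BM, 14.2 in M-BMDM, 15.2 after 3 h, 12.1 after 24 h, 15.7 in GM-BMDM and 12.6 after 3 h of IL6. With copies the values were 8.70, 10.5, 10.7, 8.97, 11.2 and 9.22, and per 1000 counts of the mRNAs with no annotated copy they were 27.6, 34.1, 37.2, 30.0, 37.3 and 31.5. BM, M-BMDM after 24 h and GM-BMDM after 3 h were the 3 lowest in each form. Without stated strand in the counting, antisense reads over mt-Nd6 cannot be told apart from its own.

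**Figure D5:**
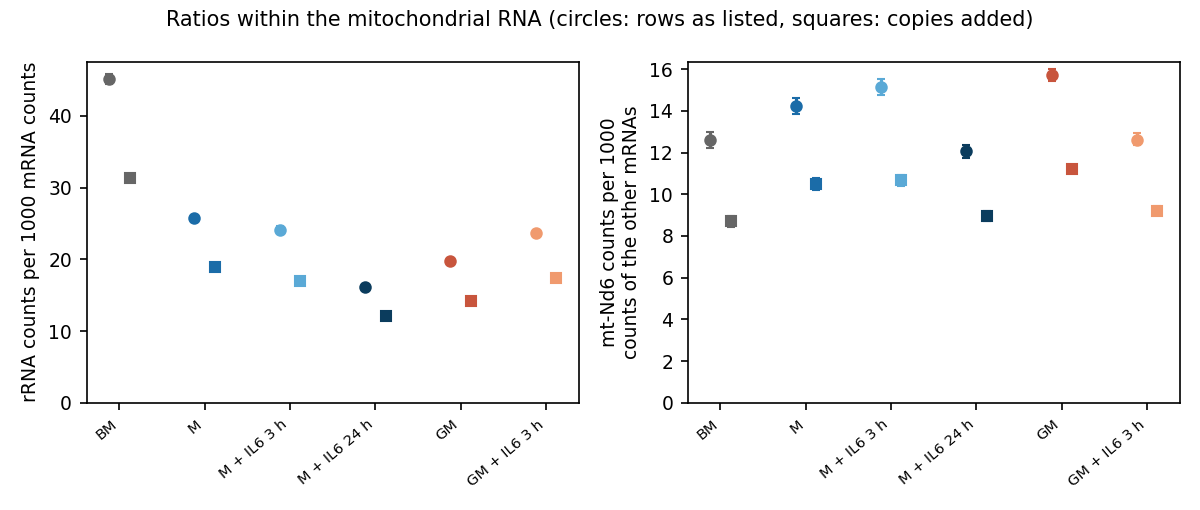
Left, rRNA counts per 1000 mitochondrial mRNA counts, and right, mt-Nd6 counts per 1000 counts of the other mRNAs, in each library, with 95% counting intervals, circles for rows as listed and squares with copies added. BM is highest on the left (45.2 as listed) and M-BMDM after 24 h of IL6 lowest (16.2).

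The 22 tRNAs, of 59 to 75 bases, held 1 count in all, on mt-Tn in BM, and 0 elsewhere. A count of 0 allows up to 3 counts per library, or 0.164 scaled CPM in the library with the smallest scaled size. Of 1005 other named genes no longer than 75 bases, 16 (1.59%) had a count in any library and 2 reached 10 counts, against 54.4% of 46589 genes over 300 bases. Genes of tRNA length were thus rarely counted whatever their genome, and no tRNA level could be compared in these libraries.

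Nuclear genes that act on the mitochondrial genome and its RNA were followed in lists. Of 10 regulators of mitochondrial biogenesis tested, 7 fell and 3 rose in GM-BMDM in the edgeR fit, where 27.4% of all genes fell and 28.9% rose (median log2 fold -0.46). Ppargc1b, a coactivator of mitochondrial genes, rose by 1.74 ± 0.29 (SE, log2, edgeR adjusted p = 1.6e-08), and its pair ratios of GM-BMDM to M-BMDM were 1.45 on the log2 scale without IL6 and 2.07 after 3 h. Ppargc1a, a related coactivator, had the largest log2 fold of the list and rose by 4.53 ± 0.88 (edgeR adjusted p = 1.5e-06), on few counts: 33 and 40 in the GM-BMDM libraries and 2, 1 and 0 in the M-BMDM libraries. Pparg rose by 0.63 ± 0.11 (edgeR adjusted p = 7.3e-08) and Myc fell by 1.37 ± 0.09 (edgeR adjusted p = 1e-39). Among the others that fell were Pprc1 by 0.87 ± 0.09 (edgeR adjusted p = 3.5e-18) and Esrra by 0.76 ± 0.09 (edgeR adjusted p = 7.2e-15). Nrf1 fell by 0.50 ± 0.10 (edgeR adjusted p = 4.6e-06) and Gabpb1 by 0.42 ± 0.11 (edgeR adjusted p = 0.0004). Genes of mitochondrial DNA transcription and replication gave 1 risen and 5 fallen of 16, among them Polg2, the accessory subunit of the mitochondrial DNA polymerase, which fell by 1.03 ± 0.23 (edgeR adjusted p = 2.1e-05).

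RNA processing and modification gave 1 risen and 10 fallen of 21 in the same fit (median log2 fold -0.35), and RNA stability, polyadenylation and decay gave 3 risen and 10 fallen of 19 (median -0.26). In the latter, Fastkd3 fell by 0.99 ± 0.12 (edgeR adjusted p = 8.1e-15) and Grsf1, an RNA-binding protein of mitochondrial RNA granules, by 0.99 ± 0.10 (edgeR adjusted p = 3.1e-21). Translation factors gave 0 risen and 2 fallen of 13 (median -0.05). The 78 mitochondrial ribosomal proteins gave 15 risen and 22 fallen (median -0.01). The fallen shares of the ribosomal proteins and of the transcription and replication genes were near that of all genes, and that of the translation factors was below it.

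For 3 h of IL6 the same lists held 1 call, a ribosomal protein gene that fell, Mrpl35 at -0.50 ± 0.12 (SE, log2, edgeR adjusted p = 0.0072), where 0.788% of all genes fell and 0.177% rose. After 24 h in M-BMDM, 3 of 8 biogenesis regulators were counted as lower and none as higher, where 8.93% of all genes were lower and 11.5% higher. These were Myc at -2.82, Esrra at -1.19 and Pprc1 at -1.08 on the log2 scale. Primpol, which restarts stalled mitochondrial DNA synthesis, was counted as higher at 1.42, alone among 13 transcription and replication genes. The other counted genes at 24 h were lower: 2 of 77 ribosomal protein genes (Mrpl52 at -1.59 and Mrps18b at -1.22), 2 of 19 RNA stability genes (Endog at -1.21 and Tbrg4 at -1.17) and 1 of 20 processing genes (Qtrt1 at -1.05). These shares are near or below that of all genes. The counts of translation factors were 0 of 13 in both directions.

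In M-BMDM against BM, where 20.1% of all genes were counted as higher and 23% as lower, 4 of 8 biogenesis regulators were higher and none lower, with Esrra at 1.26, Myc at 1.24, Pprc1 at 1.17 and Pparg at 1.08 on the log2 scale. Of 13 transcription and replication genes 2 were higher, Tefm (1.66), a transcription elongation factor, and Top1mt (1.54), and Primpol was lower (-1.53). The other lists had 5 of 77 ribosomal protein genes, 2 of 20 processing genes, 2 of 19 stability genes and 0 of 13 translation factors higher, and none lower. In GM-BMDM, where 19.8% of all genes were higher than in BM and 22.3% lower, 2 of 9 biogenesis regulators were higher, Ppargc1b (2.44) and Pparg (1.83), and 2 were lower, Nrf1 (-1.17) and Gabpb1 (-1.11). Of 13 transcription and replication genes 2 were higher, Tefm (1.38) and Top1mt (1.26), and 3 were lower. These were Polg, the catalytic subunit of the mitochondrial DNA polymerase (-1.56), Polg2 (-1.56) and Primpol (-1.13). Higher were also 4 of 77 ribosomal protein genes and 2 of 19 stability genes, and 1 ribosomal protein gene, 1 of 20 processing genes and 1 of 13 translation factors were lower.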

How the data were processed

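As deposited by the authors, the table held estimated counts (expected counts) per gene, 1 column per library, and they need not be whole: from 24.7% to 27.7% of values above 0 were not whole. HISAT2, StringTie, DESeq2 and the GRCm38 build appear in the submitters' processing notes. The sources used here give no order, version or setting for them, and neither strandedness nor the handling of reads that match several places. Of 56278 rows, 742 had no gene name, held 0.240% to 0.522% of counts per library and were left out.

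All 55536 named rows matched GENCODE M21, which gave positions and sequences. Nuclear copies were found with blastn 2.17.0 (at least 97% identity over 100 bases). Counts were scaled by TMM in edgeR 4.0.16 (R 4.3.3) and rounded to whole numbers for the fit. The fit used the 14719 genes with a CPM of at least 1 in a library, with Benjamini-Hochberg adjustment at 0.05, a biological coefficient of variation of 6.45% and prior degrees of freedom of 502.3. DESeq2 1.42.0 and limma 3.58.1 (voom) were alternatives. The edgeR term for GM-BMDM was tested on counts simulated from the means and spread of the data, with known folds. That simulation did not cover the IL6 terms or the division of reads between identical rows.

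Members and lists were chosen with earlier results of these data known. All 13 mRNAs and both rRNAs are named, tRNAs from 5 scaled CPM, and of each nuclear list up to 4 counted members per direction by size. mt-Tn, Mrpl35 and the list members named for the fit were chosen after their values were seen, as was the adding of nuclear copies. Of the marker lists, the 8 B lineage genes held 0.0897% of counts in BM and at most 8.29e-05% in a culture, the 5 T and NK genes 0.00715% and at most 1.98e-05%, and Malat1 with Neat1 from 0.0785% (BM) to 0.207% (M-BMDM). No column belonged to another sample.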

Additional observations from a re-analysis of the deposited data

Results flagged for a closer look

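Some values after 3 h of IL6 lay on opposite sides of 0 in the 2 macrophage types, and the difference between the types was not tested, since each type had 1 library per condition. In each case the log2 ratio in M-BMDM comes first and that in GM-BMDM follows. mt-Atp8 had 0.30 and -0.35, the widest gap, and the sum of mt-Atp6 and its copy had 0.16 and -0.26. For the sum of mt-Co2 and its copy the values were 0.0752 and -0.19, and for mt-Co3 with its copy 0.14 and -0.0196. mt-Nd1 gave -0.0496 and 0.056. The rRNAs ran the other way, with -0.15 and 0.19 for mt-Rnr1, -0.12 and 0.21 for mt-Rnr2 and -0.13 and 0.20 for their total. The mRNA total with copies gave 0.0215 and -0.0826. All of these are under 2-fold.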

How the results depend on the processing

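No paired analysis was possible because each group had 1 library, and for the same reason no replicate could be left out. No result counted as higher or lower changed direction under the alternatives run with rows as listed. The mRNA totals after IL6 in M-BMDM, not counted in either direction, changed sign, from -0.04 to 0.0215 at 3 h with copies added and from -0.10 to 0.0383 at 24 h with total counts. DESeq2 size factors, mt genes or haemoglobin genes left out of the scaling, limma-voom, ratios with no interval, fits with no filter or a filter of 5 CPM, a CPM limit of 1 for counted genes and a fit of only the 4 libraries of M-BMDM and GM-BMDM without IL6 and after 3 h changed no count or total beyond the limits used. With a fold limit of 1.5, counts of mRNAs higher rose to 3 (M-BMDM against BM), 9 (GM-BMDM against M-BMDM, where the total of 0.78 then passed) and 8 (the same after 3 h, total 0.77, with 1 lower), and counts lower became 3 (3 h of IL6 in M-BMDM) and 2 (24 h). With total counts GM-BMDM against BM had 3 higher and a total of 0.93, and the 24 h total was 0.0383. Without haemoglobin genes as well, added after the data were seen, these became 1, 0.797 and 0.0383. Upper-quartile factors gave 3 higher in GM-BMDM against M-BMDM. For pairs of libraries, shares of all genes were taken only at 2-fold with TMM scaling. Counts of mRNAs under another fold limit or scaling therefore have no share to be read against, and their changes are not results about these mRNAs. The DESeq2 Wald test gave 0 higher and 1 lower after 3 h of IL6, where 0 of all 14719 genes were higher and 3 lower.

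With nuclear copies added, also after the data were seen, the counts became 0 higher (M-BMDM against BM), 2 higher (GM-BMDM against M-BMDM), 0 higher (the same after 3 h) and 0 lower (3 h and 24 h of IL6 in M-BMDM, 3 h in GM-BMDM). The total for 3 h in M-BMDM became 0.0215, and the edgeR fit gave 0 lower in GM-BMDM and 0 and 0 for IL6. In the order BM, M-BMDM, its 3 h and 24 h libraries, GM-BMDM and its 3 h library, rRNA per 1000 mRNA counts became 31.3, 19.0, 17.0, 12.1, 14.2 and 17.3 with copies, or 27.8, 13.6, 12.8, 9.60, 11.003 and 13.2 for mt-Rnr2 alone with rows as listed. mt-Nd6 per 1000 other mRNA counts became 8.70, 10.5, 10.7, 8.97, 11.2 and 9.22.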
